A study of Mus musculus with 6 samples.

Results

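The Zfp genes are mouse genes named for zinc finger proteins. They were chosen as genes whose symbol is Zfp plus a number on chromosomes 1 to 19 of the GRCm38 annotation. Of such genes 2 were left out. The rule also asked for at least 5 sites with at least 10 reads in all 6 libraries between 1 kb before and 1 kb past the gene. A site is 1 cytosine of either strand, so that a CpG can give 2 sites. Every listed cytosine was taken as part of a CpG. Of 363 Zfp genes considered, 257 met this rule and 106 had fewer sites. Over the whole series 20595 genes had as many sites. The assay was reduced representation bisulfite sequencing: MspI cuts DNA at CCGG, and the short CpG-rich fragments are bisulfite-converted and sequenced, so that each site gives a count of methylated and of unmethylated reads. The libraries came from right testes of KM mice, an outbred stock, at maturity. Hemicastrated mice (3) had lost the left testis before puberty, and sham mice (3) had undergone surgery without its removal. Each mouse gave 1 library. The whole organ was used, so a site's level mixes all testis cell types, and a changed share of cells and a changed level within cells cannot be told apart.

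Most proteins of this family carry C2H2 fingers, short loops held by a zinc ion that read DNA bases, and many also carry a KRAB domain. KRAB zinc finger proteins recruit the co-repressor TRIM28, which brings histone H3K9 methyltransferases and, at some targets, DNA methylation to retroelements and imprinted regions. Their genes often lie in tandem clusters that arose by duplication. CpG-rich gene starts in mammals are usually unmethylated, whereas gene interiors are usually methylated.

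Each gene was divided into ends, 1000 bp either side of each boundary, and the body between them. A level is the mean over sites of the percent of reads methylated, and an end or body needed at least 3 sites. The strand was known for 210 of the 257 genes, which gave 161 start ends and 34 far ends. The start end lies at the outermost boundary of a gene, and 30 of the 210 genes have their nearest listed start over 1 kb inside it. In 8 of the 161 start ends no listed start of the gene itself lay within 1 kb. Another 43 end windows belonged to genes without a listed strand, and 146 genes had a measured body. The 257 genes held 12851 distinct sites, with a median of 34 sites per gene (5 to 364) and a median of 55 reads per site and library. Over these sites the libraries correlated with Pearson's r of 0.985 to 0.990, across sites that are not independent.

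The libraries held 64504011 to 78630942 methylation calls, and 952515 sites passed the read minimum. On mitochondrial DNA, taken as a measure of background, 0.478% to 0.617% of calls were methylated, so levels of about 0.5% are not told apart from 0. The tissue was checked at germ cell genes whose starts are usually methylated in somatic cells. The start ends of Dazl, Mael and Tex101 stood at 4.75% to 32.1% over the 6 libraries, and the highest of these values was Mael in hemicastrated library 1. Ddx4, Sycp1 and Stk31 had too few sites, and only the body of Tdrd1 was measured.

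RefSeq promoters of 300 bases, 250 before the listed start and 50 after it, are shown for 4 Zfp genes on build GRCm38.p6, with every CG in capitals. They were chosen to span the patterns described below: Zfp169 (chr13:48513387-48513686, minus strand) is unmethylated here and methylated farther upstream, Zfp996 (chr12:18387241-18387540, plus strand) is slightly methylated, Zfp628 (chr7:4914967-4915266, plus strand) is unmethylated before a methylated body, and Zfp57 (chr17:37000913-37001212, plus strand) is CpG-poor and had no kept site.
Zfp169: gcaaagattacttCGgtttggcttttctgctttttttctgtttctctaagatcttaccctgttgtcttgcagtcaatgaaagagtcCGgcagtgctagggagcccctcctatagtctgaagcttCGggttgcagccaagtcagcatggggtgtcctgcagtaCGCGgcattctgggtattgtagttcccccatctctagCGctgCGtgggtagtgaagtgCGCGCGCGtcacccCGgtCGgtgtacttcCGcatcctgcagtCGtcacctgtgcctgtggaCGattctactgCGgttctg
Zfp996: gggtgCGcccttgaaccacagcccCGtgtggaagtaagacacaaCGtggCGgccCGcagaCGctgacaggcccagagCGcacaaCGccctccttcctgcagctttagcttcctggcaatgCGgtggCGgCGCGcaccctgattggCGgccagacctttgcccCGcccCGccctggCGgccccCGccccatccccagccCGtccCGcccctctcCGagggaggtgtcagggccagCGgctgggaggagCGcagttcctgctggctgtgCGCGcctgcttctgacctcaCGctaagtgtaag
Zfp628: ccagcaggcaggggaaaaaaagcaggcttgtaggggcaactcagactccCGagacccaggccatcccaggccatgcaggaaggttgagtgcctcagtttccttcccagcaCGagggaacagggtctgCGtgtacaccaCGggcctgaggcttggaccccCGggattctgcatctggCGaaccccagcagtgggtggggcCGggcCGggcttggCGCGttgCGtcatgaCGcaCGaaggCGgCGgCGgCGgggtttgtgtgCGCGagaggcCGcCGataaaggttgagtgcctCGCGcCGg
Zfp57: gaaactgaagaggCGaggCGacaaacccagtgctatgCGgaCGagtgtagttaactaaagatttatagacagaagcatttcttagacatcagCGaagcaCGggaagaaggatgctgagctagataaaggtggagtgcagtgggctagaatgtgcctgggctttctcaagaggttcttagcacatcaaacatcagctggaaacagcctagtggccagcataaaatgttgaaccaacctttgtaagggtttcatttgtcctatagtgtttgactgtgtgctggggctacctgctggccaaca

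The promoter of Zfp169 holds 17 CpGs and 2 CCGG sites, that of Zfp996 holds 25 CpGs and 0 CCGG sites, that of Zfp628 holds 24 CpGs and 4 CCGG sites, and that of Zfp57 holds 6 CpGs and 0 CCGG sites. Over the 210 Zfp genes of the rule with a listed promoter, the median promoter held 16 CpGs. The 91 listed promoters of Zfp genes with fewer than 5 sites had a median of 8 CpGs, and other genes with at least 5 sites a median of 18. CCGG, the MspI site, stood in 167 of the 210 promoters (79.5%) and in 52 of the 91 (57.1%). The measured genes are thus the CpG-richer share of the family, and the assay reads DNA next to CCGG. The letters TGCCGC, searched on both strands, stood in 38 of the 210 promoters (18.1%), in 17.3% of the promoters of other genes with at least 5 sites and in 11.6% of all 27024 listed promoters, so its share was near that of other measured genes.

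The measured starts of Zfp genes were almost free of methylation. The 161 start ends had a mean level of 1.18% and a median of 0.533%, and 153 of them (95%) were below 2%. Only 3 were above 10%. Among 10511 start ends of other autosomal genes the median was about the same, at 0.564%, but the mean was 6.65%. Of them 84.1% were below 2% and 4.40% were above 80%. Here and below, other genes were taken without regard to gene type, whereas 255 of the 257 Zfp genes were protein coding. No Zfp start end was above 80%. Of the 43 end windows without a listed strand, which may be starts or far ends, 9 were above 10% and 4 above 80%. Within the 300-base promoters, 104 Zfp genes were measured, at a mean of 0.591%, and 0 were above 10%, beside 4.23% of 5960 other promoters. Of the 161 start ends, 32 had a listed start of another gene within 1 kb.

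Several start ends stood apart from the family. Zfp872, a zinc finger gene in a cluster on chromosome 9, had a start-end level of 36.4%, 75.8% and 41.6% in the hemicastrated libraries and 52.2%, 12% and 59.1% in the sham libraries. It rested on 3 sites at positions -741 to -638 relative to the start. The libraries differed widely, with the highest in the hemicastrated group and the lowest in the sham group, and the groups overlapped.

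Zfp772, on chromosome 7, had a start-end level of 19.2%, 21.0% and 8.03% in hemicastrated and 16.0%, 1.26% and 9.38% in sham libraries. The sites 261 to 298 bp after its start carried this methylation, at means of 19.1% to 22.3%, while those 321 to 368 bp after it were at 1.28% to 1.67%. Sham library 2 was listed at 0 at each of the 4 methylated sites, where the other 5 libraries read 5.88% to 46.3%. Zfp27, also on chromosome 7, had 16.6%, 7.14% and 7.02% against 11.6%, 8.92% and 4.01%. Its upstream sites, at positions -619 to -557, were at 7.34% to 22.1%, and its sites inside the gene, at positions 624 to 663, were at 0.393% to 0.564%. At both genes the groups overlapped.

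Zfp169, on chromosome 13, had a start-end level of 13.5%, 12.6% and 12.8% in hemicastrated and 13.8%, 13.6% and 14.1% in sham libraries. This mean joined separate blocks of sites. The 44 sites at positions -69 to 227, which overlap the promoter shown, were at 0.468%, and 10 sites at positions -1000 to -930 were at 70.2%. The groups did not overlap, but the difference of -0.87 percentage points did not pass the test described below. Zfp996, on chromosome 12, was the one of these 5 high start ends with methylation spread over many sites: 40 sites gave 9.33%, 8.20% and 8.69% against 9.49%, 6.59% and 8.15%. Its promoter sites were at 2.96%. The levels of all 6 libraries lay close together and the groups overlapped.

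At the other extreme, Zfp942 and Zfp943, neighbours on chromosome 17 whose start windows hold the same 7 sites, had 0 methylated of 644 calls over all libraries, which allows a level of up to 0.466% (3 calls, counting error only). The start ends of Zfp451, Zfp260 and Zfp629 followed at 0.0585%, 0.236% and 0.278%. Values this low lie under the share of methylated calls on mitochondrial DNA.

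**Figure D1:**
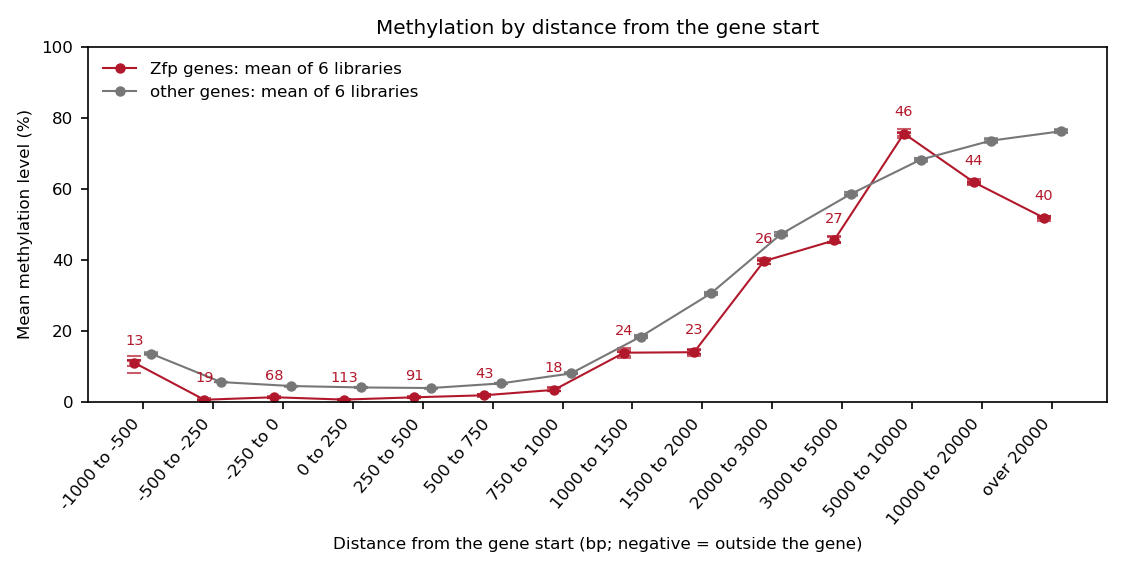
Mean methylation level (percent) of the sites of each gene by distance from the gene start (bp), for Zfp genes (red, with the number of genes) and other genes (grey); points are means of 6 libraries and dashes single libraries. Zfp genes were at 0.604% in the first 250 bp and at 75.6% between 5 and 10 kb. They lay below other genes at every distance shown except between 5 and 10 kb. Distances run from the outermost boundary, and sites near inner starts are included.

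With distance from the outermost start, levels of Zfp genes rose up to 10000 bp and were lower beyond, as the plot of methylation by distance shows. Zfp genes were at 0.604% in the first 250 bp (113 genes) and at 3.35% between 750 and 1000 bp (18 genes). They stood at 13.8% between 1000 and 1500 bp, at 39.6% between 2000 and 3000 bp and at 75.6% between 5000 and 10000 bp (46 genes). Other genes were at 4.03%, 7.97%, 18.4%, 47.2% and 68.3% at the same distances. Between 10000 and 20000 bp Zfp genes were at 61.9% (44 genes) and beyond 20000 bp at 51.9% (40 genes), while other genes stood at 73.6% and 76.2%. Different genes fill the different distances, so the profile does not follow any one gene. The far distances also hold sites near inner starts, since distance runs from the outermost boundary. Examples are Zfp597, with its start listed at 12003 bp and a body at 0.388%, and Zfp638, at 47285 bp and 0.554%. The lower levels beyond 10000 bp are therefore not those of gene interior alone.

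Gene bodies fell into unmethylated, intermediate and methylated ones. The 146 Zfp bodies had a mean level of 48.0% and a median of 38.0%. Of them 34 were below 10%, 49 (33.6%) were above 80%, and 63 lay between 10% and 80%. The 11881 bodies of other genes had a mean of 59.0% and a median of 74.4%, and 45.7% of them were above 80%. No test was made of this difference, because members of a family share sequence and are not replicates. In 21 of the 34 low Zfp bodies at least 50% of the sites lay within 1 kb of a listed start or gene boundary. The same held in 1093 of the 2054 low bodies of other genes. In 19 of the 21 Zfp bodies at least 50% lay within 1 kb of a listed start of the gene itself. None of the 49 high Zfp bodies was of this kind with respect to its own starts. Without such sites 124 Zfp bodies remained, at a mean of 60.6%, beside 68.8% for other genes.

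**Figure D2:**
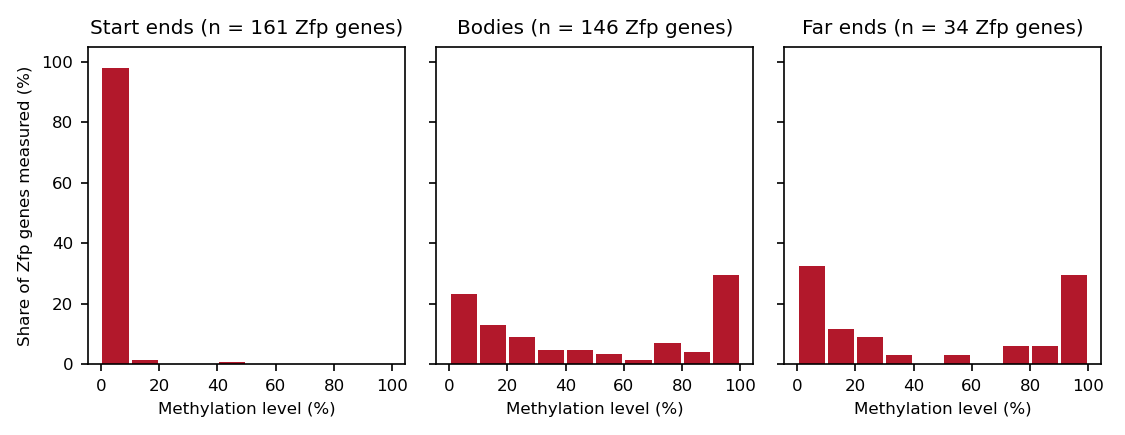
Share of Zfp genes (percent of those measured) by methylation level (mean of 6 libraries, in bins of 10 percentage points) at start ends, in bodies and at far ends. Start ends fill the lowest bin, and bodies and far ends gather at both extremes.

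The lowest bodies were those of Zfp597 at 0.388% and Zfp821 at 0.402%, and all of their sites, 43 and 44, lay within 1 kb of a start of the gene listed 12003 bp and 10256 to 10767 bp inside the boundary. They are thus promoter-near sites and not gene interior. Low bodies without a listed own start nearby included Zfp235 at 0.711%, Zfp503 at 1.10% and Zfp563 at 0.744%. The highest were Zfp644, whose protein binds the H3K9 methyltransferases G9a and GLP, at 97.8%, Zfp28 at 97.3%, Zfp622, a ribosome maturation factor, at 97.2%, and Zfp408 at 96.9%. The bodies of Zfp644 and Zfp622 rested on 3 and 4 sites, that of Zfp408 on 35. Zfp628, whose protein is needed for sperm formation, had its body at 77.9% over 48 sites.

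In 65 genes both the start end and the body were measured. The start was lower in 6 of 6 libraries in 61 of them (93.8%), higher in all libraries in 0, and mixed in 4 (Zfp503, Zfp597, Zfp563 and Zfp169), and the median difference was -49.4 percentage points. Among 5611 other genes the start was lower in every library in 86.2%, with a median difference of -74.6 points. In Zfp503 and Zfp563 both parts were nearly unmethylated. In Zfp597 both were too, but its body sites are those at its inner start. In Zfp169 the body stood at 12%, close to its start end.

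Far ends varied as bodies did. The 34 far ends had a mean of 44.6% and a median of 23.2%, with 11 below 10% and 12 above 80%, beside a mean of 49.4% and a median of 60.0% for 2629 other genes. Of the 11 low far ends, 2 had a listed start of another gene within 1 kb, that of Zfp597 at Zfp174 and that of Zfp28 at Zfp78. Among other genes 383 of 956 low far ends (40.1%) had one. The far end of Zfp771 was at 0.466% over 173 sites, and those of Zfp503 and Zfp36 at 0.421% and 0.545%. The highest were Zfp566 at 98.1%, Zfp747 at 97.5%, Zfp507 at 97.0% and Zfp688 at 96.3%.

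Far end and body kept no fixed order. Of 21 Zfp genes with both, the far end was lower in 6 of 6 libraries in 7 and higher in 10. Among 1371 other genes it was lower in 493 and higher in 519, so this was not particular to the family. Of 19 Zfp genes with both ends measured, the start was the lower one in every library in 14 (73.7%), beside 1048 of 1702 other genes (61.6%). The remaining 5 Zfp genes included Zfp36, which is 2445 bp long and unmethylated at both ends.

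**Figure D3:**
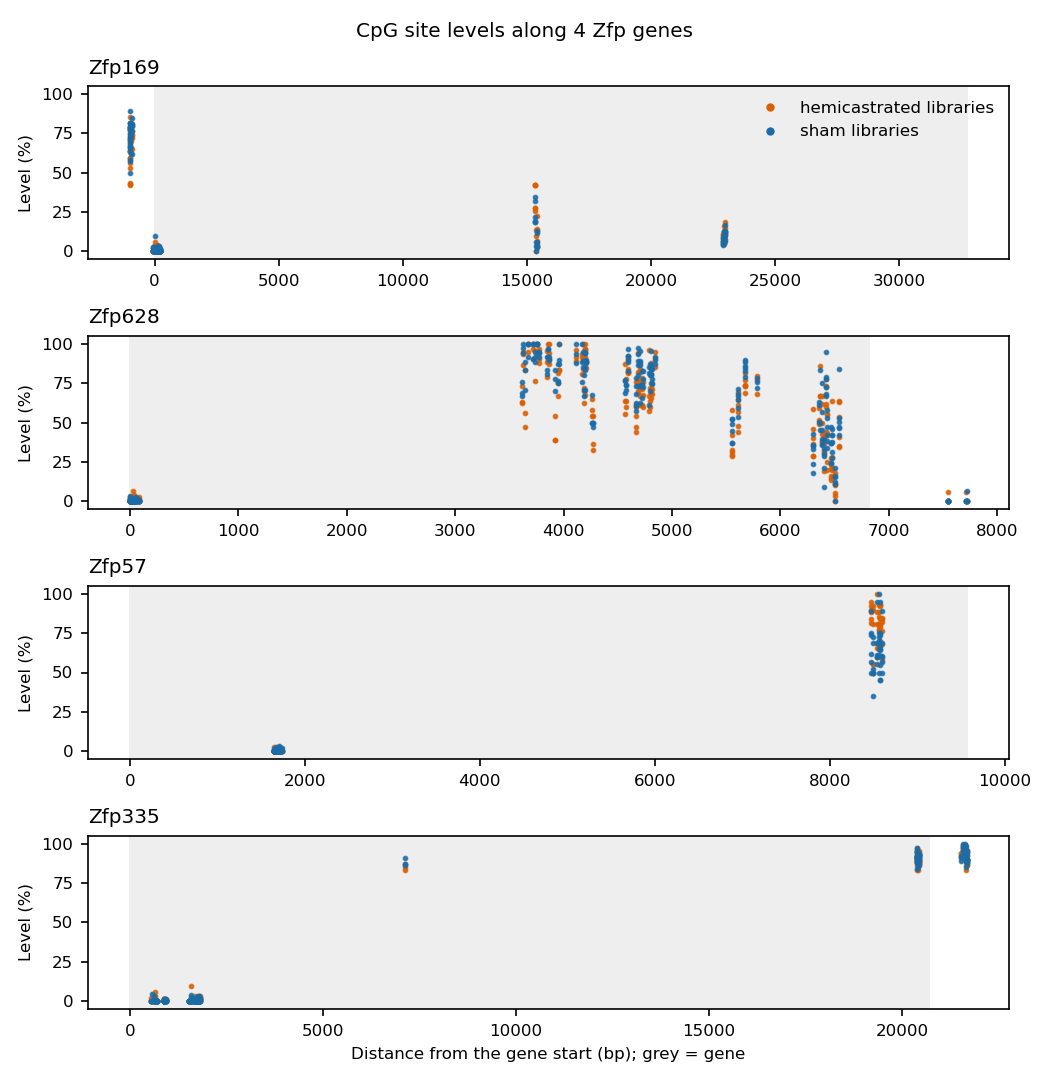
Methylation level (percent) of each CpG site by distance from the gene start (bp) in Zfp169, Zfp628, Zfp57 and Zfp335, with the gene in grey and 1 point per library. The sites nearest each start lie near 0, and blocks of sites farther away lie at separate levels, such as 70.2% upstream of Zfp169 and 94.0% past Zfp335.

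Genes of the family with a known role showed the same contrast in different forms. Zfp335, a transcription factor needed in neural progenitors and T cells, was at 0.349% at its start and 92.4% at its far end. Its body mean of 3.28% came from 30 unmethylated sites at 1541 to 1806 bp, within 1 kb of its start listed at 835 bp, while the single body site at 7118 bp read 86.6%, so the level of a body can depend on where its sites lie. Zfp423, a factor in neural development and fat cell commitment, had its start end at 0.533%. Farther in, its sites were at 0.514% at 2961 to 4136 bp, 3.10% at 17996 to 18234 bp and 93.9% at 181101 to 181793 bp. The starts of Zfp423 are listed at 2458 and 157614 bp inside the boundary, so its start end holds no listed start. Its body averaged 51.5% over 312 sites and its far end 5.36%. Zfp521, a related factor on chromosome 18, had a body at 88.1% and a measured end at 0.622%.

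Zfp598, a ubiquitin ligase that senses collided ribosomes, was at 0.734% at its start and 95.5% in its body. Zfp296, a factor of pluripotent cells, was at 0.397% at its start and 96.2% at its far end. Zfp462, which acts in heterochromatin, had a body at 80.7%. Not all role genes had methylated interiors. Zfp503 and Zfp703, related co-repressors, had bodies at 1.10% and 5.25%, and Zfp148, which binds GC-rich promoters, had a body at 1.96%, with 17 of its 34 sites within 1 kb of a listed start.

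Start ends of the other role genes stayed low. Zfp281, a regulator of pluripotency, was at 0.488%, Zfp143, an activator that binds many promoters, at 0.620%, and Zfp37, a gene known for its testis expression, at 0.512%. Zfp36, which binds AU-rich messenger RNAs, was at 0.390%. Among KRAB genes, Zfp809, which silences retroviruses, was at 0.363% at its start, and Zfp568, a repressor of a placental Igf2 transcript, was at 0.530% at 1 end of unlisted side. Zfp57, which maintains methylation at imprinted regions, had no measured start end. Its sites 1644 to 1734 bp into the gene, within 1 kb of inner starts of the gene, were at 0.366%, and those at 8465 to 8595 bp were at 72.0%.

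Clusters were set as at least 3 Zfp genes, measured or not, each within 500 kb of the one before. There were 32, holding 221 genes, and 9 of them lay on chromosome 7, which carried 90 of the 363 genes. Of the clustered genes 142 were measured (64.3%), against 115 of the 142 Zfp genes elsewhere (81.0%). Duplicated genes share sequence, and no source used here says how reads that fit several copies were treated.

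Clustered genes had start ends as low as the others, at 1.40% against 0.895% outside clusters, medians 0.516% and 0.540%. Their bodies were at 45.6% (74 genes) and 50.4% (72 genes). Far ends were at 32.3% in clusters (19 genes) and 60.2% outside (15 genes), the widest gap of these 3 features. Some clustered far ends had a listed start of another gene within 1 kb: Zfp174 (0.388%), Zfp78 (0.542%), Zfp628 (34.3%) and Zfp335 (92.4%). Those of Zfp174 and Zfp78 hold starts of the clustered Zfp597 and Zfp28. Whole regions had about the same mean in and outside clusters, at 18.4% and 18.1%, with medians of 4.03% and 10.6%. Below 1% were 58 of 142 clustered regions (40.8%) and 32 of 115 others (27.8%). A whole-region level depends on which parts of the gene were measured, and a body was measured in 74 of the 142 and 72 of the 115. Of the 11 Zfp genes whose whole region was above 80%, 10 lay in clusters (Zfp820, Zfp952, Zfp334, Zfp981, Zfp12, Zfp212, Zfp111, Zfp566, Zfp936 and Zfp688), and Zfp488 lay outside. None of these 11 genes had a kept site in a listed promoter, so their high whole-region levels leave the promoter out. No test was made, since neighbours in a cluster are not replicates.

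**Figure D4:**
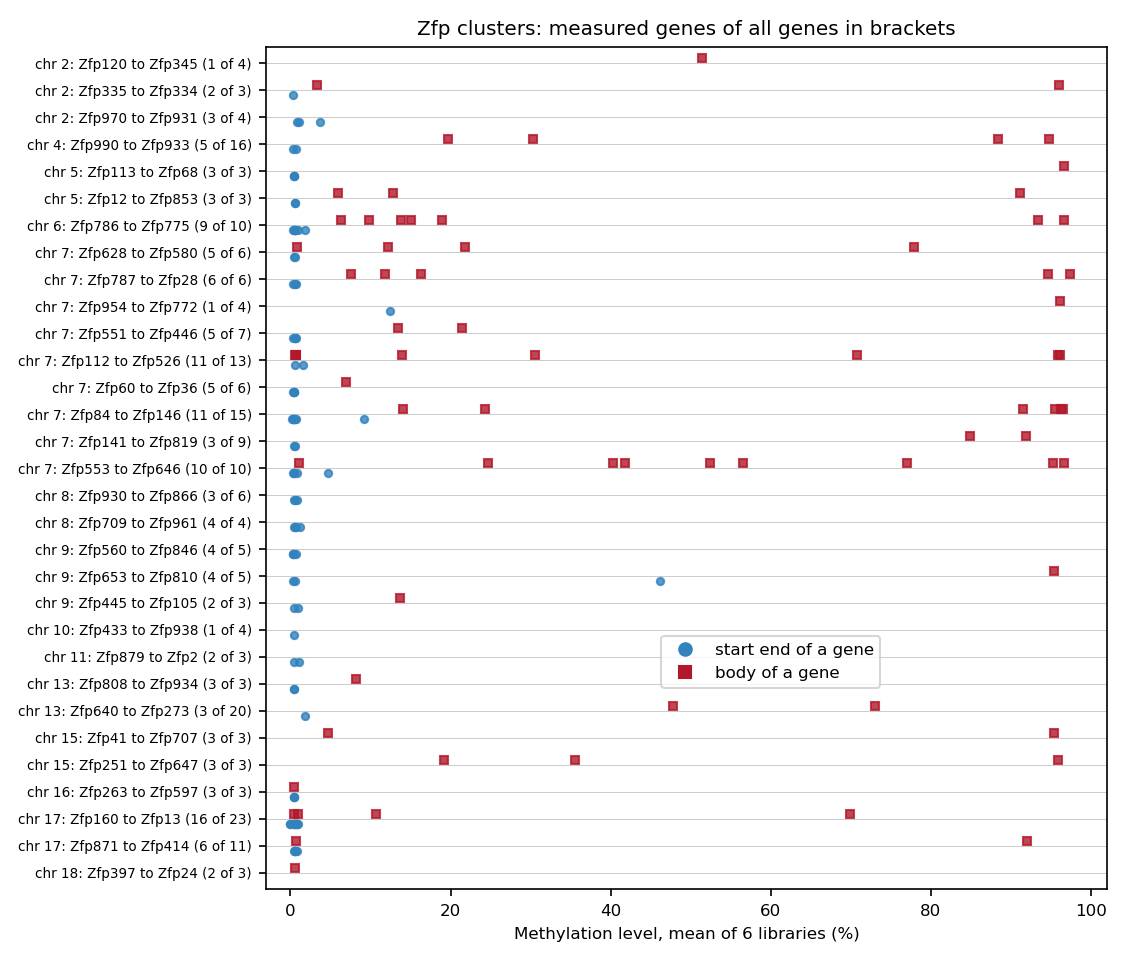
Methylation level (percent, mean of 6 libraries) of start ends (blue) and bodies (red) of the measured Zfp genes in each cluster, named by chromosome and by its first and last gene, with the number measured of all its genes in brackets. Start ends lie near 0 in nearly every cluster, and bodies within a cluster range from near 0 to over 90%, some of the lowest holding sites near the gene's own inner start.

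Neighbouring genes of a cluster often had unlike bodies, as the plot of levels by cluster shows. The cluster at chr7:29768552-30169775, with 15 genes, had bodies at 91.5% (Zfp84), 95.5% (Zfp74), 96.6% (Zfp14) and 96.3% (Zfp566), but at 14.1% in Zfp30 and 24.3% in Zfp790. Of the 22 body sites of Zfp790, 10 lay within 1 kb of its listed start, at 0.374%, and the other 12 were at 44.2%. Its start ends were below 1% except that of Zfp27. The cluster at chr7:24112320-25227876 held Zfp111 at 95.8% and Zfp94 at 96.2% beside Zfp235 at 0.711%. Its bodies of Zfp93 at 0.720% and Zfp428 at 0.534% consisted of sites within 1 kb of the own start, listed 2434 and 2539 bp inside the boundary. At chr7:127233061-127885996 all 10 genes were measured, and the bodies ran from 24.7% in Zfp689 to 96.6% in Zfp646, apart from that of Zfp771 at 1.11%, of whose 19 sites 16 lay at its listed start.

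The largest cluster, chr17:21008941-23599755, held 23 genes, of which 16 were measured. Its 9 start ends had a mean of 0.493% and its 4 bodies a mean of 20.5%, with 69.9% in Zfp213 and 10.7% in Zfp13. The other two, Zfp229 at 0.468% and Zfp52 at 0.986%, had all their sites within 1 kb of their own listed starts. The clusters at chr4:145510759-147849126 and chr13:66670274-67827000 held 16 and 20 genes, but only 5 and 3 were measured. The body mean over the former was 58.3% and over the latter 60.4%, and both rest on few genes.

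Other zinc finger families gave a frame for these levels. Zbtb genes, which join fingers to a BTB domain, had 23 start ends at a mean of 4.03% (median 0.533%) and 22 bodies at 60.9%. Zscan and Zkscan genes, which carry a SCAN domain, had 9 start ends at 0.745% and 10 bodies at 46.7%. Body levels of the Zfp genes were nearer to the latter, without a test.

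Whether hemicastration was accompanied by other methylation at these genes was asked next. Over the 161 start ends hemicastrated mice had a mean of 1.27% ± 0.142 and sham mice one of 1.08% ± 0.187 (SD, n = 3 each), a difference of 0.188 percentage points (SE 0.136). Bodies were at 47.9% ± 0.332 and 48.1% ± 0.524 (SD, n = 3 each), a difference of -0.15 (SE 0.358). Far ends were at 44.8% ± 1.11 and 44.4% ± 1.14 (SD, n = 3 each). In all 3 features the libraries of the groups overlapped, and the body and far-end differences were smaller than their standard errors.

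Single genes were tested with edgeR's quasi-likelihood F test on the summed counts, adjusted over all features of a kind in the genome by Benjamini-Hochberg at 0.05. Features without a methylated read could not be fitted, which left out 1 whole region and 2 ends, all of Zfp942 and Zfp943. No Zfp gene passed: 0 of 256 whole regions, 0 of 236 ends and 0 of 146 bodies, against 0% of features called in the genome for each kind. At an unadjusted p under 0.05 stood 6 Zfp whole regions (2.34%, beside 3.11% of all regions), 12 Zfp ends (5.08%, beside 4.24% of all ends) and 4 Zfp bodies (2.74%, beside 3.45% of all bodies). limma on log ratios and a quasi-binomial model also called 0 Zfp features of each kind. Levels of the groups did not overlap in 15 of 257 whole regions (5.84%, beside 9.38% of all regions), in 27 of 238 ends (11.3%, beside 9.82%) and in 6 of 146 bodies (4.11%, beside 9.34%). These shares are near or below those of all features, so they are no result about the family.

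The signs of the differences were mixed. Ends were higher in hemicastrated mice in 145 and lower in 91 of 238 windows, with a median difference of 0.067 points. All ends of the genome were split 11096 to 9436. Bodies were higher in 70 and lower in 76. The median size of the difference was 0.205 points at Zfp ends and 0.611 points in Zfp bodies.

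**Figure D5:**
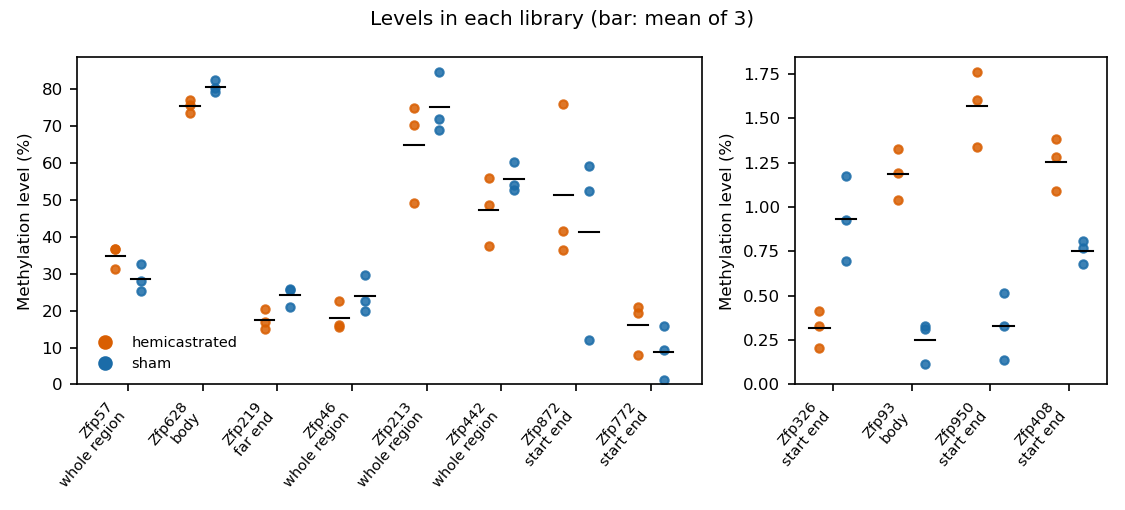
Methylation level (percent) in each of the 3 hemicastrated (orange) and 3 sham (blue) libraries for 12 features of Zfp genes, with bars for group means; the right panel has a smaller scale. Groups overlap at Zfp57, Zfp46, Zfp213, Zfp442, Zfp872 and Zfp772 and do not overlap at Zfp628, Zfp219 and the features of the right panel.

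The smallest p at an end was that of Zfp326, which acts in RNA splicing. Its start end, 22 sites on chromosome 5, was at 0.415%, 0.329% and 0.207% in hemicastrated and 0.695%, 0.928% and 1.17% in sham libraries (edgeR adjusted p = 0.991). The groups did not overlap, but all libraries lay within about a point of 0. The body of Zfp93, on chromosome 7, was the reverse case, at 1.04%, 1.19% and 1.32% against 0.327%, 0.315% and 0.118% (edgeR adjusted p = 0.9999). All 10 of these sites lay within 1 kb of the start of Zfp93 listed 2434 bp inside the boundary, so the difference is at promoter-near sites.

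Other unmethylated ends gave small differences of either sign. The start end of Zfp950 was at 1.60%, 1.34% and 1.76% in hemicastrated and 0.327%, 0.138% and 0.517% in sham libraries, and Zfp408 at 1.09%, 1.28% and 1.38% against 0.680%, 0.768% and 0.808%. Both pairs of groups did not overlap, with hemicastrated libraries higher. The start ends of Zfp644, Zfp11 and Zfp994 had mean differences of 0.287, 0.418 and 0.244 points. The start ends of Zfp641 and Zfp69 had differences of -0.45 and -0.18 points, and an end of unlisted side of Zfp532 one of -0.25 points. The adjusted p of each was 0.991 in edgeR's test.

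The wider differences were at methylated features. The body of Zfp628 was at 76.8%, 75.5% and 73.5% in hemicastrated and 80.045%, 79.2% and 82.3% in sham libraries, and every hemicastrated library was lower (edgeR adjusted p = 0.9999). Its start end, whose promoter is shown above, was at 0.574%, 1.12% and 0.508% against 0.366%, 0.262% and 0.429%, with every hemicastrated library higher. Its far end, at 34.3%, also covers the start of the neighbouring gene Nat14, and its groups overlapped. The block of 41 sites at 3614 to 4841 bp carried most of the body, at 80.5%.

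The far end of Zfp219, on chromosome 14, was at 20.4%, 16.9% and 15.0% in hemicastrated and 25.6%, 21.0% and 25.8% in sham libraries (edgeR adjusted p = 0.991). Hemicastrated libraries were lower without overlap. The neighbouring block of 12 sites in the gene, at 12594 to 12703 bp, read 45.9% and did not separate the groups, with 46.0%, 45.5% and 48.2% against 46.1%, 38.3% and 51.0%.

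Zfp57 was higher in hemicastrated mice on average. Its whole region was at 36.6%, 36.6% and 31.2% against 27.9%, 25.4% and 32.6% (edgeR adjusted p = 0.99997), and hemicastrated library 3 lay below sham library 3. The 14 sites at 8465 to 8595 bp held the difference, at 83.2%, 83.4% and 70.7% against 63.6%, 57.2% and 74.0%, while the sites nearer the start averaged below 1% in every library. With at least 20 reads per site the sign turned, to a log2 odds ratio of -0.36. The same setting turned the sign, to 0.36, at Zfp46, whose whole region was at 22.5%, 15.5% and 16.1% against 19.9%, 22.5% and 29.6%, with overlapping groups.

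Some genes varied widely between single libraries. The widest range of whole-region level was at Zfp213, on chromosome 17, with 49.0%, 70.3% and 74.9% in hemicastrated and 71.8%, 68.8% and 84.4% in sham libraries over 14 sites, a span of 35.4 points. Zfp442, on chromosome 2, followed with 37.5%, 55.7% and 48.5% against 52.7%, 54.0% and 60.3%. Its sites at 38674 to 39421 bp spread from 23.8% to 52.8%, while those at 26985 to 27065 bp stayed between 75.5% and 82.8%. Zfp872 (span 17.9 points), Zfp239 (14.7) and Zfp46 (14.2) came next, and in all 5 genes the groups overlapped. Single sites seldom varied that much: 107 sites of Zfp genes (0.833%) spanned over 40 points, beside 1.34% of all sites.

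At Zfp583 the sign depended on the measure. Its pooled reads gave higher odds of methylation in hemicastrated mice (edgeR adjusted p = 0.9999 for the body), whereas its mean site level was lower by a difference of -0.21 points. Of its 16 body sites, 14 lay within 1 kb of its listed start. Zfp367, Zfp667 and Zfp365 had mean differences of 0.204, 2.04 and 3.01 points and did not pass the test. Zfp54 and Zfp943 had whole-region differences of -0.31 and -0.12 points, and the body of Zfp872 one of -4.22 points, and these did not pass either.

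The partners of KRAB zinc finger proteins were read in the same tests. Of 22 genes for TRIM28 and its co-factors, the HUSH complex and DNA methyltransferases, 20 had a measured region, 15 a start end and 13 a body, and 0 passed edgeR's test, with 0 at an unadjusted p under 0.05. Their start ends were at 0.334% to 1.45%, and 13 of the 15 were below 1%. Trim28, the co-repressor gene itself, was at 0.512%, and Setdb1, which encodes its H3K9 methyltransferase, was the highest at 1.45%. Bodies had a median of 79.6%, from 0.416% in Cbx3 to 97.1% in Ehmt1.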

How the data were processed

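Right testes of 3 hemicastrated and 3 sham-operated mice were analysed, 1 library per mouse. The authors deposited methylated and unmethylated read counts per cytosine and the level in percent; per the submitters' processing notes, GRCm38, TopHat2 2.0.11 and Bismark were used, and neither Bismark's version nor trimming nor duplicate removal is given in the sources used here. A site, 1 cytosine of either strand, needed 10 reads or more in each of the 6 libraries. Gene boundaries came from a RefSeq table of the same build and strands from RefSeq promoters, so that ends of genes without a listed strand stayed unnamed. Counts were summed per feature and tested with edgeR 4.0.16 (R 4.3.3; methylation by group term, a column per library, adjusted over all genes), with limma 3.58.1, adding 1 to each count, and a quasi-binomial model as alternatives. The code was tested on simulated data, where only features of intermediate level were given a known shift. Recovery at nearly unmethylated starts was therefore not measured. Levels and figures used Python 3.11.15, numpy 2.4.6, pandas 2.3.3 and matplotlib 3.10.9. Named genes were the 5 smallest p in each direction per feature kind, the 5 highest and 5 lowest start ends, the 5 widest spans and a list of genes with known roles; genes named for bodies, far ends, clusters or promoters were chosen after their values were seen. Members and lists were chosen with earlier results of these data known. Nothing says that samples sharing a number are pairs, so the groups were compared unpaired.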

Additional observations from a re-analysis of the deposited data

How the results depend on the processing

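No Zfp gene passed edgeR's test at whole regions, ends or bodies under any alternative run, including each library left out. Of 397 recomputed differences of named features, 393 kept their direction and side of the threshold. These features were picked for the smallest p in these same counts and had adjusted p of at least 0.99 in edgeR's test. Most settings reuse those counts, so the tally does not measure robustness. With 20 reads per site the log2 odds ratio turned to -0.36 at Zfp57 and 0.36 at Zfp46. This held for whole region and body alike, and the cause was not tested. Members with an unadjusted p under 0.05 numbered 6 to 12 for whole regions, 6 to 15 for ends and 2 to 9 for bodies. Among all features tested, the share under 0.05 ran from 2.555% to 4.596% for whole regions. It ran from 3.683% to 4.953% for ends and from 2.904% to 4.627% for bodies. The Zfp counts were not tested against these shares.

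Whether replicate numbers of the labels pair the samples is not stated. Same-numbered deviations correlated at 0.0537, 0.123 and 0.0251, and differently numbered ones at -0.122 to 0.0667. Such correlations cannot decide whether mice were handled in pairs. With the replicate number as a block, 0 members passed in each kind. An unadjusted p under 0.05 in edgeR's test was found in 8 of 256 Zfp whole regions, 8 of 236 ends and 6 of 146 bodies. Among all features it was found in 649 of 20589 whole regions, 846 of 20532 ends and 457 of 13054 bodies. The Zfp counts are thus near the background of the genome.

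Levels moved as windows changed, since other sites enter. With 500 bp either side, start ends were at 0.715%, far ends at 45.8%, bodies at 39.3%, 77.5% of starts were lower than the body in every library and the median start minus body was -17.1 points; with 2000 bp the values were 3.43%, 48.8%, 55.1% and -67.7 points. With 20 reads per site far ends were at 41.7% (hemicastrated minus sham -0.78), bodies at 45.6%, the median start minus body was -43.7, bodies in and outside clusters were at 43.3% and 47.8%, and far ends at 33.6% and 55.0%. With strands merged far ends were at 41.2%, bodies at 46.7%, the median at -46.2, bodies in and outside clusters at 44.8% and 48.7%, and far ends outside at 55.7%. A cluster gap of 250 kb gave bodies outside at 49.7% and far ends at 31.1% and 56.6%, and 1 Mb gave bodies in clusters at 46.0%. Settings chosen after seeing the data gave bodies at 60.6% (sites over 1 kb from starts) and starts at 0.591% (300-base promoters).

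Leaving out 1 library gave start ends of 1.13% to 1.24%, far ends of 44.4% to 44.9% and bodies of 47.9% to 48.1%. Hemicastrated minus sham ran from 0.0806 to 0.266 at starts, -0.22 to 1.04 at far ends and -0.42 to 0.0999 in bodies. The median start minus body ran from -51.1 to -47.9 and the share of lower starts from 93.8% to 95.4%. In clusters bodies ran from 45.5% to 45.7% and far ends from 32.2% to 32.4%, and outside from 50.3% to 50.6% and 59.7% to 60.8%. At a median of 55 reads per site and library, start levels near 0.5% are at the background of mitochondrial DNA.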
